A study of Mus musculus with 12 samples.

Results

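The peaks described here are the places in the adult mouse forebrain transcriptome at which miR-138-5p was found joined to a target RNA. They were chosen as every annotated peak that carried the small RNA name miR-138-5p, leaving out peaks annotated as mitochondrial rRNA or on Gm42418, an rRNA-related gene. This gave 3479 of 250567 peaks over 4 lists, with 19 in the excitatory list, 37 in reps 5-7, 3423 in reps 1-4 and 0 in the IgG list. The choice used names and annotation alone and no peak height.

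The method, CIMERA-seq, crosslinks Argonaute to RNA with ultraviolet light (3 rounds here), precipitates it and joins each small RNA to the RNA it sits on, so that a chimeric read names both partners. The excitatory list pooled 3 libraries precipitated with anti-myc, for the tagged Ago2 that a Camk2a-CreERT2 driver (active in forebrain excitatory neurons) switches on from the ROSA26 locus. The reps 5-7 list pooled 3 libraries and the reps 1-4 list 4 libraries of forebrain precipitated with anti-Ago2, and the IgG list pooled 2 libraries made with a nonspecific antibody. All mice were C57BL/6, matched for sex and age and killed at 10 to 12 weeks. The treatment text, worded alike for every sample, gives 2 mg tamoxifen daily for 5 days and 14 to 21 days of waiting, and it does not say which of the mice used for anti-Ago2 and IgG had the tagged allele. How many mice went into a library is not stated, and 3 library numbers are shared by the excitatory and reps 5-7 lists. Peaks were called once per pooled list, from at least 3 reads in at least 2 libraries, so each list is a single observation and the tests below compare lists, or small RNAs within a list, with counting error alone.

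The lists differed widely in size. Outside rRNA they held 704 peaks (excitatory), 3020 peaks (reps 5-7), 242044 peaks (reps 1-4) and 1 peak (IgG). The median score of a miR-138-5p peak, the authors' whole number per peak whose definition is not stated, was 4 in each of the 3 Ago lists. The IgG list held 10 peaks in all, so that 0 of 10 allows a miR-138-5p share of up to 30%. Of 12 excitatory neuron marker genes, only Camk2a had a CDS or UTR peak of any small RNA in the excitatory list (13 peaks), and Slc17a7 had none. Inhibitory, astrocyte, microglia and vascular markers had 0 peaks there, and 1 of 11 oligodendrocyte markers had any.

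MicroRNAs guide Argonaute to RNAs that pair with their seed, the bases near the 5′ end, and lower the stability or translation of those RNAs. miR-138 is enriched in brain, and in rat hippocampal neurons it is known to limit dendritic spine size through Lypla1 (APT1), an enzyme that removes palmitate from proteins. In mouse the same mature strand is made from a pair of hairpin genes. Its sequence, and those of the opposite strands of both hairpins, are shown because the seed defines what the peaks can be checked against. They come from RefSeq on GRCm38.p6, the assembly of the mm10 build used by the authors, and capitals mark the seed, bases 2 to 8.
mmu-miR-138-5p: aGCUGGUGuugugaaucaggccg
mmu-miR-138-1-3p: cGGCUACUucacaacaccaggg
mmu-miR-138-2-3p: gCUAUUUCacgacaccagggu
The 23-base miR-138-5p lies at chr9:122682898-122682920 in Mir138-1 and at chr8:94324312-94324334 in Mir138-2, both on the plus strand. No other mature mouse miRNA in the table had its seed.

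A DNA target of the whole seed reads CACCAGC, and one of seed bases 2 to 7 reads ACCAGC, which lies inside it. Peak sequence was at hand only where a peak, widened by 10 bases on each side, lay inside a RefSeq promoter window (250 bases before to 50 after a gene start). Of the 3423 peaks in reps 1-4, 9 did. On the peak's own strand 3 of the 9 held ACCAGC (33.3%, 95% Wilson interval 12.1% to 64.6%), against 9 of 502 such peaks of other small RNAs (1.79%, 0.946% to 3.37%). CACCAGC was in 1 of the 9 and in 0 of the 502. On the opposite strand the miR-138-5p peaks held neither motif, while ACCAGC was in 14 and CACCAGC in 7 of the 502. The 3 sites with a match are shown, so that the peak can be set beside its letters, and capitals mark the match. The other 6 peaks held neither motif on their own strand, among them the CDS peak of Ppp2r2c, a phosphatase subunit gene, which had the highest score of the 9 (10).
Csnk1e: ccgcgatgcccgcacaCACCAGCatat
Gcnt2: agcctgcccaacctctACCAGCagct
Gstm5: tctggagtttactgatACCAGCtatg
The Csnk1e site (chr15:79426330-79426356, minus strand, GRCm38.p6) lay in the CDS of casein kinase 1 epsilon under a peak of score 3. The Gcnt2 site (chr13:40917961-40917986, plus strand), in the CDS of a branching glycosyltransferase, also lay under a peak of score 3. The Gstm5 site (chr3:107896321-107896346, plus strand) lay in the 5′ UTR of a glutathione transferase under a peak of score 5. These 9 peaks were singled out after the data were seen and are gene-start peaks, so they do not stand for the whole list.

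miR-138-5p made up 2.70% of the excitatory peaks outside rRNA (95% Wilson interval 1.73% to 4.18%), 1.23% of those in reps 5-7 (0.890% to 1.68%) and 1.41% of those in reps 1-4 (1.37% to 1.46%). By number of peaks it ranked 8 of 57 small RNAs in the excitatory list, 13 of 132 in reps 5-7 and 12 of 708 in reps 1-4. The excitatory share was 1.47 percentage points above that of reps 5-7 and passed the test (two-sided Fisher's exact test, p = 0.0364 after Benjamini-Hochberg adjustment), in a comparison in which 35.9% of the 39 small RNAs tested were called. The call rests on 19 and 37 peaks and was lost under 4 alternatives, with the largest p for 9 of the 704 highest-scoring peaks of reps 5-7 (1.42 points, exact test, adjusted p = 0.316). The excitatory share was 1.28 points above that of reps 1-4, which did not pass (exact test, adjusted p = 0.151), with 4.12% of 243 small RNAs called. The share in reps 5-7 minus that in reps 1-4 was -0.189 points and did not pass either (exact test, adjusted p = 1), with 2.88% called. The excitatory list differs from the others in antibody, tagged protein and cell type at once, and these cannot be told apart.

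In reps 1-4 miR-138-5p sat on coding sequence more often, and in introns less often, than the rest of the small RNAs. CDS took 1455 of its 3423 peaks (42.5%, interval 40.9% to 44.2%), against 22.7% of the 238621 peaks of other small RNAs. This difference of 19.8 percentage points passed the test (exact test, adjusted p = 3.17e-141). A higher CDS share was called for 36.2% of the 243 small RNAs tested, so the direction is shared by many of them. Introns took 985 of its peaks (28.8%), against 48.7% for the others (exact test, adjusted p = 8.35e-121), and a lower intron share was called for 75.7%. The 3′ UTR, the region in which miRNA sites are best known, took 684 peaks (19.98%), against 18.97% (exact test, adjusted p = 0.179), where 58.4% of small RNAs were called in either direction. miR-124-3p alone gave 72011 of the other peaks, with 15.2% in CDS and 61.4% in introns.

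Among mRNA peaks alone, which leaves introns out, miR-138-5p was again placed toward coding sequence in reps 1-4. CDS held 66.3% of its 2193 CDS and UTR peaks, against 53.3% for other small RNAs. The 3′ UTR held 31.2%, against 44.5%, a difference that passed the test with these peaks alone (exact test, adjusted p = 7.51e-35). The share of small RNAs called in that comparison was not counted. The 5′ UTR held 54 peaks (2.46%), against 2.26%. Within their annotated CDS segment and 3′ UTR, miR-138-5p peaks had median relative positions of 0.511 and 0.420, counted from 0 at the start to 1 at the end, against 0.5 and 0.470 for other small RNAs.

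**Figure D1:**
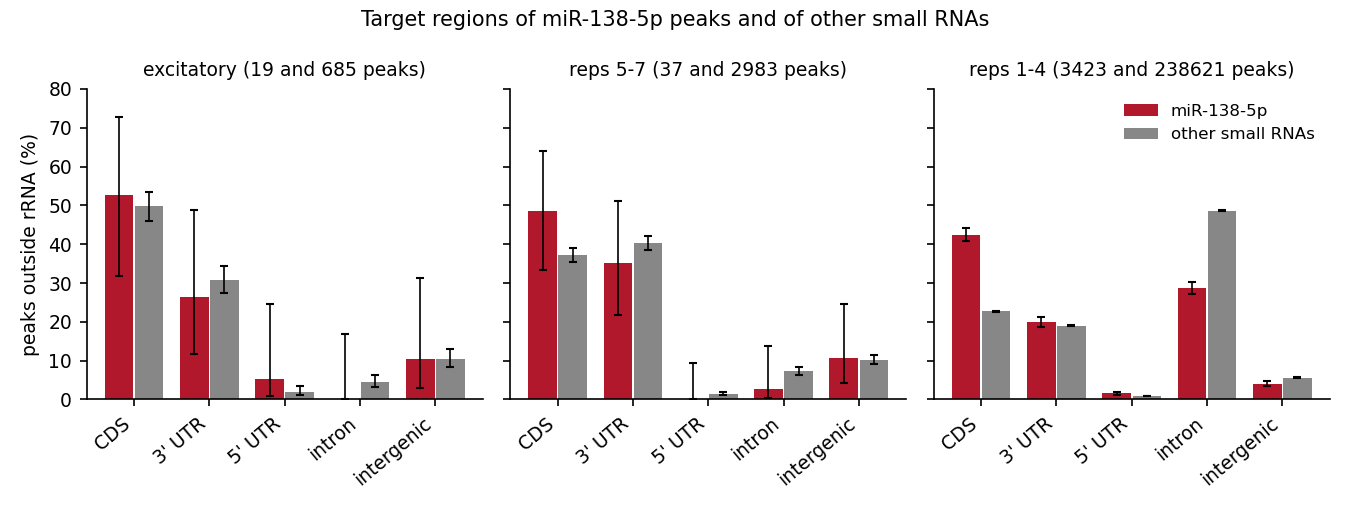
Share of peaks outside rRNA (%) in CDS, 3′ UTR, 5′ UTR, introns and intergenic stretches for miR-138-5p (red) and all other small RNAs (grey) in each Ago list, with 95% Wilson intervals as error bars. In reps 1-4 the CDS bar of miR-138-5p stands at 42.5%, against 22.7%, while the intervals of the 19 excitatory and 37 reps 5-7 peaks are wide.

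The smaller lists did not settle the same question. In the excitatory list 10 of 19 miR-138-5p peaks lay in CDS (52.6%), 5 in 3′ UTRs, 1 in a 5′ UTR and 0 in introns, against 49.8% of other peaks in CDS (exact test, adjusted p = 1), and 16.7% of the 12 small RNAs tested were called for CDS. Without the mitochondrial peaks the excitatory CDS difference turned to -2.65 points, with 8 of 17 peaks in CDS. In reps 5-7 CDS held 18 of 37 (48.6%), against 37.2% (exact test, adjusted p = 0.463), 3′ UTRs 13, and introns 1, with 20% of 35 small RNAs called for CDS.

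Set against small RNAs singly, the CDS share of miR-138-5p was high but not extreme. Among the 97 small RNAs with at least 100 peaks in reps 1-4, it ranked 19, where the median was 30.5% and the highest, miR-652-3p, had 55.0%. It was above 61 of the other 96 (63.5%) and below 7 by the exact test after adjustment over the 96, and 28 did not pass. The let-7 member let-7i-5p, with 54.5%, was among those above it (adjusted p = 7.09e-11, exact test). miR-127-3p, an imprinted miRNA with 44.5%, differed by -1.99 points, miR-138-5p minus miR-127-3p, which did not pass (exact test, adjusted p = 0.152). The neuronal miR-128-3p had 23.3%, which is 19.2 points below miR-138-5p (exact test, adjusted p = 5.48e-104). In introns and 3′ UTRs miR-138-5p ranked 48 and 72 from the top among the same 97. The medians over these 97 were 28.3% for introns and 25.5% for 3′ UTRs, beside 28.8% and 19.98% for miR-138-5p. Set against single small RNAs, its intron share was thus near the median and its 3′ UTR share below it.

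**Figure D2:**
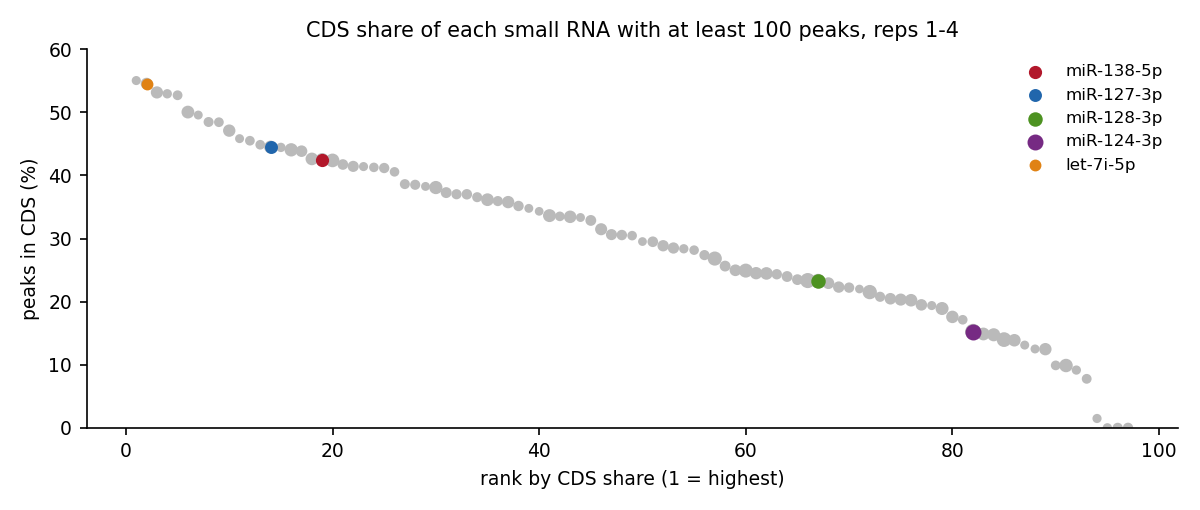
CDS share (%) of each of the 97 small RNAs with at least 100 peaks in reps 1-4, in order of rank, where point area grows with the number of peaks. miR-138-5p (red) lies at rank 19 with 42.5%, below miR-127-3p at 44.5% and far above miR-128-3p at 23.3% and miR-124-3p at 15.2%.

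The place of miR-138-5p peaks varied with their score in reps 1-4. CDS held 32.3% of the 1475 peaks of score 3, 47.3% of those of 4 to 6, 55.4% of those of 7 to 19 and 54.2% of the 144 of 20 or more. The others went through 16.8%, 22.0%, 33.7% and 40.9% over the same classes. Introns held 41.6%, 25.1%, 9.64% and 5.56% of miR-138-5p peaks, against 59.98%, 50.02%, 28.7% and 8.97%. At scores of 20 or more, 28 of 144 miR-138-5p peaks (19.4%, interval 13.8% to 26.7%) lay in 3′ UTRs, against 34.6% of the others. Counted by summed score in place of peaks, the 3′ UTR share of miR-138-5p minus that of the others was -4.28 points.

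**Figure D3:**
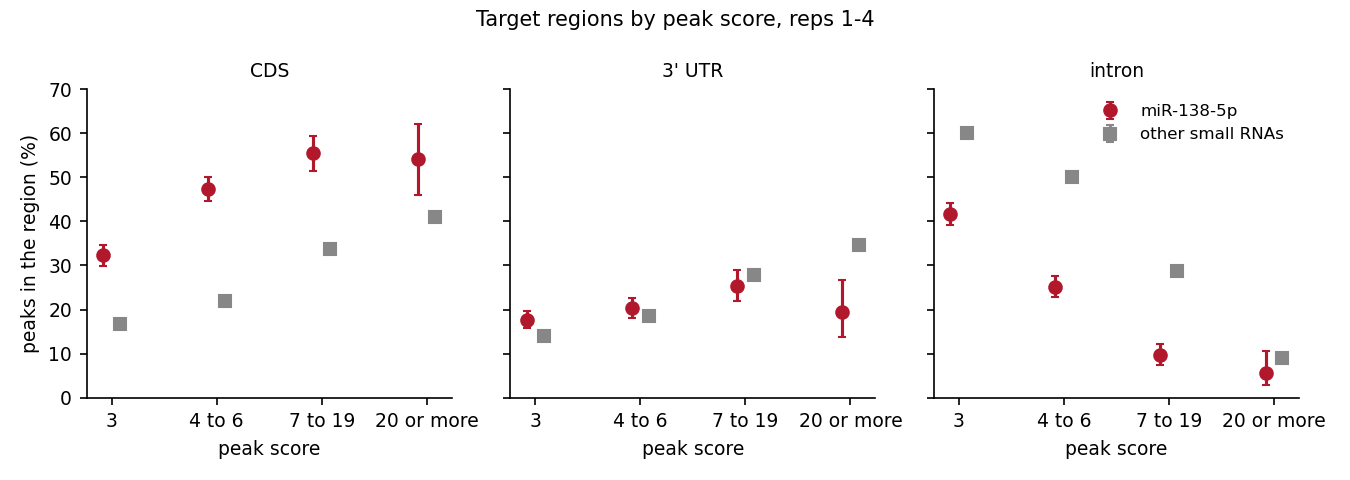
Share of peaks (%) in CDS, 3′ UTRs and introns by peak score in reps 1-4 for miR-138-5p (red circles) and other small RNAs (grey squares), with 95% Wilson intervals. In every score class the CDS share of miR-138-5p lies above that of the others, from 32.3% against 16.8% at score 3 to 54.2% against 40.9% at 20 or more.

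Most peaks of the smaller lists were met again in the largest. Of the 19 excitatory peaks, 18 (94.7%, interval 75.4% to 99.1%) shared at least 1 base and the strand with a miR-138-5p peak of reps 1-4, against 94.2% for other small RNAs (exact test, adjusted p = 1), with 0% of 12 small RNAs called. The exception was an intergenic peak on chromosome 16 with a score of 4. Of the 37 in reps 5-7, 30 (81.1%, interval 65.8% to 90.5%) did so, against 89.0% (exact test, adjusted p = 0.756), with 2.86% of 35 called. Between the excitatory list and reps 5-7, 9 of 19 were shared (47.4%), against 53.7% for other small RNAs. When at least 50% of each peak had to overlap, 52.6% of the excitatory peaks and 48.6% of those of reps 5-7 recurred in reps 1-4.

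Those 9 excitatory peaks each also met a miR-138-5p peak of reps 1-4, and their places are called shared by all 3 lists here. Of the 9 places, 6 lay in nuclear genes. On the CDS of Map2, the microtubule-associated protein of dendrites (chr1:66415645-66415662, plus strand, mm10), the score was 9 in the excitatory list, 7 in reps 5-7 and 160 in reps 1-4. In reps 1-4 miR-138-5p held 94.7% of the score of all small RNAs at that place. On the CDS of Sptbn1, a spectrin of the membrane skeleton (chr11:30100641-30100645, minus strand), the scores were 4, 11 and 89 in the same order of lists, and this peak together with a pair of neighbours in reps 1-4 summed to 439.

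The 3′ UTR of Nsmf (chr2:25062240-25062252, plus strand), a messenger from the synapse to the nucleus, had the highest excitatory score, 14, with 6 in reps 5-7 and 247 in reps 1-4. The 3′ UTR of Cbx6 (chr15:79828090-79828106, minus strand), a Polycomb reader of histone marks, had 8, 8 and 141, and miR-138-5p held 97.9% of the score there in reps 1-4. At both places it was the highest-scoring small RNA. The CDS of Myo5a, an actin motor that carries vesicles, had 3, 3 and 48, with no other small RNA at the place. The Y RNA gene Rny3 had 6, 8 and 62, and there miR-138-5p ranked 2, behind miR-124-3p, with 23.0% of the score.

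The remaining 3 shared places were mitochondrial or next to rRNA. mt-Nd5, a complex I subunit of the respiratory chain, carried the highest miR-138-5p score of reps 5-7 (25) and of reps 1-4 (796), and scored 13 in the excitatory list. mt-Nd2, another complex I subunit, had 4, 8 and 130. In reps 1-4 miR-138-5p led both places, with 83.9% and 43.9% of the score. The intergenic place on chromosome 17 just before Gm42418 scored 9, 16 and 392. There the reps 5-7 and reps 1-4 peaks each met the excitatory peak but shared no base with each other. In reps 1-4 this place was shared by 268 small RNAs and miR-138-5p held 2.20% of its score. An intergenic place on chromosome 3 (chr3:5860612-5860721, mm10) was of the same kind, with 5 miR-138-5p peaks summing to 617 among 211 small RNAs, or 1.71% of the score.

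**Figure D4:**
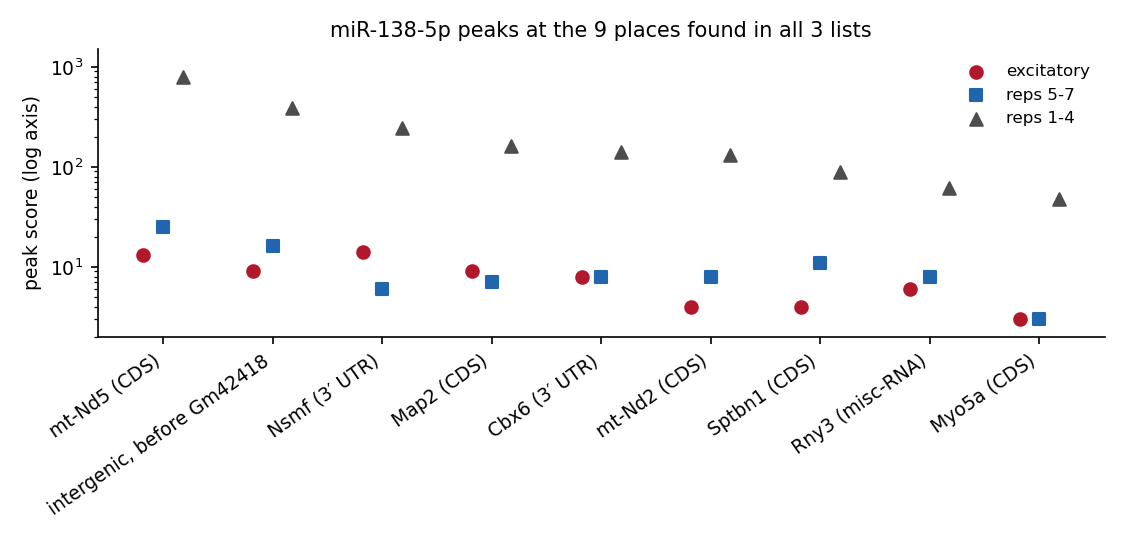
Score of the miR-138-5p peak (log axis) at the 9 places where an excitatory peak met a peak of both other lists. Circles are the excitatory list, squares reps 5-7 and triangles reps 1-4, with 1 peak per point. At the place before Gm42418 the reps 5-7 and reps 1-4 peaks shared no base with each other. Every reps 1-4 point, from 48 on Myo5a to 796 on mt-Nd5, lies above the points of both smaller lists, whose libraries are fewer and whose scores are not scaled for depth.

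Peaks on the mitochondrial chromosome outside rRNA were a larger part of miR-138-5p peaks than of others in each Ago list, given here as values with no test. They were 2 of 19 in the excitatory list (10.5%, against 0.730%), 4 of 37 in reps 5-7 (10.8%, against 2.82%) and 44 of 3423 in reps 1-4 (1.29%, against 0.569%). By summed score in reps 1-4 they were 6.79%, against 1.39%. The others were pooled here, and whether single small RNAs had shares as high was not examined. mt-Nd5 had 8 peaks with a summed score of 1000, mt-Nd2 7 with 218, mt-Co1, a subunit of complex IV, 8 with 212, and mt-Cytb, of complex III, 5 with 78. How reads that also match nuclear copies of mitochondrial DNA were treated is not stated.

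The other genes of the excitatory list had single peaks of low score that mostly had a higher score in reps 1-4. In CDS these were Epb41l1, a membrane skeleton protein (4, against 54 in reps 1-4), Astn1, an adhesion protein of migrating neurons (3, against 52), Ndufb9, a complex I subunit (3, against 40), Atp2b3, a calcium pump (3, against 6), and Atp6v0d1, a proton pump subunit (5, against 3). In 3′ UTRs they were Lzts3, a postsynaptic scaffold partner (3, against 46), Rmnd5a, a ubiquitin ligase subunit (3, against 37), and Ago1, an Argonaute itself (3, against 6). Camk2a, the kinase whose promoter drives the Cre, had a 5′ UTR peak of 5, against 17 in reps 1-4, where miR-124-3p led the place. Atp6v0d1 was the only one of these 9 with a higher excitatory score.

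Beyond the shared places, the reps 5-7 list held further genes. Its highest scores among them were 5 each on Camk2a CDS, the neurobeachin gene Nbea, the chromatin corepressor Rere, the glutamate receptor partner Neto1, the adhesion gene Pcdh1, the translation regulator Impact and mt-Cytb. Of these 7, the Pcdh1 3′ UTR peak alone met no miR-138-5p peak in reps 1-4, where that place was led by miR-124-3p. Rab3a, a vesicle GTPase, scored 4 on CDS, against 34 in reps 1-4, and Ddn, the dendritic protein dendrin, 3 on its 3′ UTR, against 104.

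In reps 1-4 the peaks spread over many genes, most hit once. A CDS or UTR peak of miR-138-5p was found on 1466 of the 9672 genes with such a peak of any small RNA (15.2%). Of these, 1069 had 1 peak, 254 had 2 and 143 had 3 or more, while 850 had CDS peaks only, 431 had 3′ UTR peaks only and 139 had both. Camk2a had the most, 31, of which 24 were in CDS, 5 in the 3′ UTR and 2 in the 5′ UTR, and they made 5.53% of the gene's summed score. The glutamate transporter gene Slc1a2 had 12, the presynaptic scaffold gene Bsn 10, and Sptbn1, Map2, the adenylyl cyclase gene Adcy1, the coactivator gene Mkl2 and the vesicle calcium sensor gene Syt1 had 9 each. Slc1a2 had 511 peaks in all and miR-138-5p held 0.891% of its score, against 10.6% of that of Sptbn1.

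Outside the genes with a shared place and the intergenic stretches, the highest single scores in reps 1-4 lay on 6 genes. The 3′ UTR of Ddn scored 104, the CDS of Kalrn, which encodes kalirin, a protein of dendritic spines, 101, the 3′ UTR of the chloride channel gene Tmem206 96 and that of the CaMKII inhibitor Camk2n1 94. The CDS of mt-Co1 scored 88 and that of Kdm6b, a histone demethylase, 82. miR-138-5p held 77.6% of the score at the Ddn place, 84.2% at Kalrn, 76.2% at Tmem206, 88.9% at the mt-Co1 place, which joins 2 peaks, and 83.7% at Kdm6b, but 24.0% at Camk2n1, where miR-26a-5p led.

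Summed over CDS and UTRs, miR-138-5p had the highest score of all small RNAs, ties included, on 115 of 9672 genes with peaks there. On 22 of the 115 its summed score was at least 20. They were led by mt-Nd5 (1000), Sptbn1 (465) and Nsmf (263). Next came Tmem206 (96), Kdm6b (89), Zfp365 (83), Atn1 (79), Tmcc2 (68), Lzts3 (49) and the Polycomb gene Rybp (41). The mitochondrial coactivator gene Ppargc1a (22) and the translation repressor gene Eif4ebp1 (28) were also among the 22, each through 1 peak in its 3′ UTR. At the level of places, miR-138-5p was the highest-scoring small RNA at 94 of its 107 CDS and UTR peaks of score 20 or more (87.9%, interval 80.3% to 92.8%), against 82.3% for other small RNAs. The median over the 24 small RNAs with at least 50 such peaks was 89.0%, and miR-138-5p ranked 13 among them.

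Places were often shared between small RNAs. In reps 1-4, 44.8% of miR-138-5p CDS peaks and 45.2% of its 3′ UTR peaks overlapped a peak of another small RNA, against 52.8% and 52.3% for the peaks of the others. In introns 23.6% did so, against 19.1%. The most frequent partners were miR-124-3p, at 567 peaks, miR-9-5p at 256 and let-7c-5p at 183, with 72011, 26191 and 5547 peaks in all. Their order did not follow peak number throughout. miR-128-3p (12853 peaks) and miR-26a-5p (16913) had more peaks than let-7c-5p but were partners at 149 and 134. let-7i-5p, with 979 peaks, was a partner at 88.

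Genes of the synapse carried miR-138-5p peaks more often than genes at large, and they also carried more peaks of any small RNA. In reps 1-4, 17 of 22 presynaptic genes had a CDS or UTR peak of miR-138-5p (77.3%), against 15.2% of all genes with such a peak of any small RNA. Of 26 postsynaptic genes 18 did (69.2%). The presynaptic genes had a median of 54 peaks of any small RNA and the postsynaptic genes 40, against 5 for all genes. As a share of the peaks of the list, miR-138-5p made 3.65% of presynaptic and 4.19% of postsynaptic CDS and UTR peaks, against 2.11% over all genes. Camk2a alone gave 31 of the 69 postsynaptic miR-138-5p peaks, and 464 of the 1645 postsynaptic peaks of any small RNA. The median miR-138-5p share per gene was 3.35% for presynaptic and 2.53% for postsynaptic genes, against 0% for all genes. That 0% follows from most genes having no miR-138-5p peak, so this contrast is not independent of the gene counts. These counts are descriptions with no test.

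Among presynaptic genes the summed miR-138-5p scores were highest on Bsn (96, over 10 peaks) and on Snap25, a protein of the fusion complex (76, over 3 peaks, 12.3% of the gene's score). Syt1 had 54, the scaffold gene Pclo 39 over 8 CDS peaks, and Rab3a 38, or 15.3% of its score. Syp, Stx1a, Vamp2, Cplx1 and Nrxn3 had no miR-138-5p peak in CDS or UTRs. Among postsynaptic genes Camk2a (482) and Ddn (110) were followed by the scaffold genes Dlgap3 (41), Shank1 (38) and Dlg2 (34). Dlg4, the gene of PSD-95, had 24, or 10.8% of its score. Of 8 glutamate receptor genes, Gria3 (6), Grm5 (6), Gria4 (3), Grin2a (3) and Grin2b (3) had 1 peak each. Gria1, Gria2 and Grin1 had none, with 78 peaks of other small RNAs on Gria2.

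Of 22 genes listed from the literature as miR-138 targets, 17 had a CDS or UTR peak of any small RNA in reps 1-4. Against 15.2% of all genes with such a peak, 6 of these 17 had one of miR-138-5p (35.3%). They were Lypla1 (1 peak in the 3′ UTR, score 10, 8.13% of the gene's score), Rmnd5a (37), the G protein gene Gnai2 (4 peaks summing to 38), the histone gene H2afx (7), the focal adhesion kinase gene Ptk2 (5) and the transcription factor gene Zeb2 (3). Rock2, Sirt1, Hif1a, Dcp1b, Vim, Ccnd1, Ccnd3, Limk1, Sox4, Senp1 and Vcan had peaks of other small RNAs and none of miR-138-5p. Rmnd5a was the only gene of this list with a miR-138-5p peak in the excitatory list. The list was drawn from several tissues and cell types. Its genes had a median of 10 peaks of any small RNA, against 5 for all genes. miR-138-5p made 4.07% of their peaks, against 2.11% over all genes, with a median share per gene of 0% in both. These counts had no test.

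The palmitoylation enzymes, to which Lypla1 belongs, had 3 of 17 genes with a miR-138-5p peak (17.6%), Lypla1, Zdhhc8 (4) and Zdhhc9 (3), and miR-138-5p made 1.42% of their peaks. Genes of the miRNA pathway had 7 of 16, among them the tagged protein's own gene Ago2 with 4 peaks in the 3′ UTR (22), Tnrc6b (28) and Dicer1 with 3 in CDS (17). Activity-regulated genes had 4 of 9, with Arc at 36, Nr4a1 at 31, Egr1 at 11 and Homer1 at 5. There miR-138-5p made 7.14% of the peaks, or 11 of 154, with 4 each on Arc and Nr4a1. Over all genes 15.2% had a miR-138-5p peak and it made 2.11% of the peaks. The median number of peaks of any small RNA was 11 for palmitoylation, 24 for miRNA pathway and 12 for activity-regulated genes, against 5 for all genes. In each of these gene lists, and over all genes, the median miR-138-5p share per gene was 0%.

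Markers of cell types differed in how many carried the miRNA in reps 1-4, where 15.2% of all genes did. Excitatory neuron markers had 4 of 11, and Camk2a gave most of their peaks. Slc17a7, a vesicular glutamate transporter gene, had 2 peaks summing to 20, and the cortical factor gene Tbr1 had 1 with 3. Astrocyte markers had 5 of 10, led by Slc1a2, oligodendrocyte markers 3 of 9, and vascular markers 1 of 9, Tek (3). In the same order, the median number of peaks of any small RNA a gene was 49.5, 8 and 7, against 5 for all genes. For excitatory markers it was 13. miR-138-5p made 5.78% of the peaks of excitatory, 1.89% of astrocyte, 2.46% of oligodendrocyte and 0.935% of vascular markers, against 2.11% over all genes. Inhibitory neuron markers had 0 of 7 and microglia markers 0 of 6, lists with a median of 3 and 5 peaks of any small RNA a gene. The peaks were uneven, as Gad1 had 46 and Gad2 29 of the 92 on inhibitory markers, none of them of miR-138-5p. Microglia markers had 30 in all. Why some lists had none in CDS and UTRs was not tested. In forebrain as a whole, fewer cells of a type and less RNA per cell cannot be told apart.

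**Figure D5:**
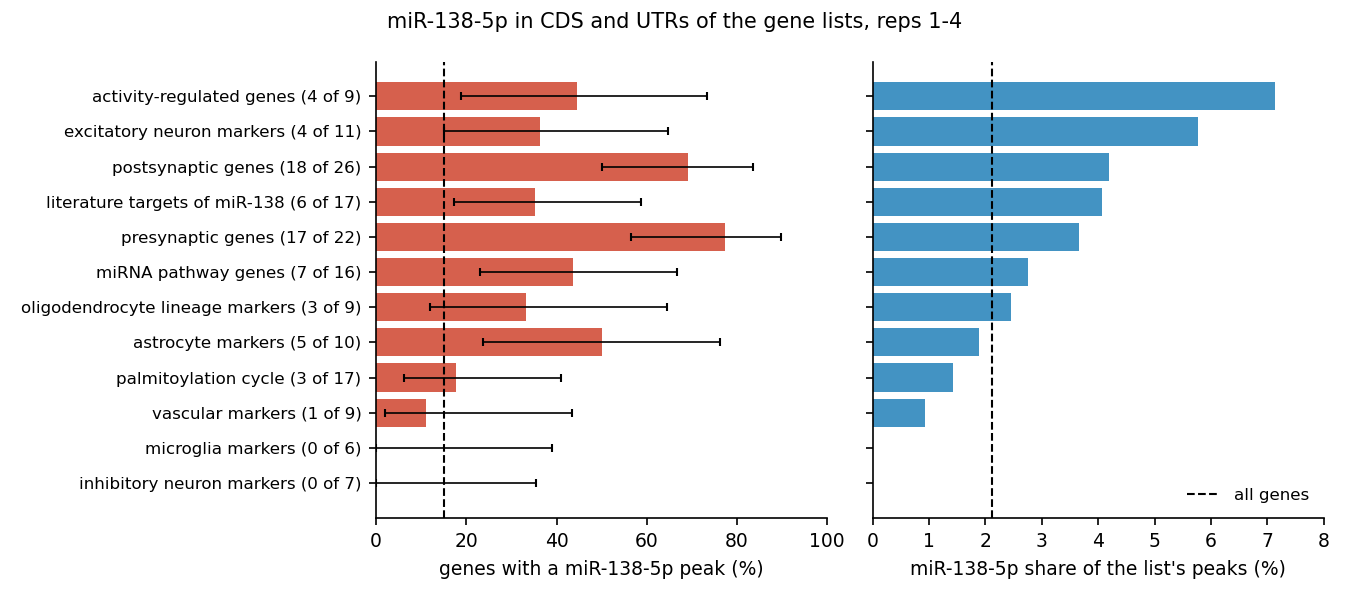
For 12 gene lists in reps 1-4, the share of its genes with a miR-138-5p CDS or UTR peak (left, %, with 95% Wilson intervals and the counts beside the names) and the miR-138-5p share of all its CDS and UTR peaks (right, %), with dashed lines for all genes at 15.2% and 2.11%. Presynaptic and postsynaptic genes lie highest on the left at 77.3% and 69.2%, and activity-regulated genes highest on the right at 7.14%.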

How the data were processed

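The deposited values are peaks of chimeric reads. The authors called them on mm10 once per pooled list, with miRBase mouse names and minimums of 3 reads and 2 libraries, per the file headers of the calling summaries. The score of each peak is the authors' deposited whole number, which is not scaled for depth. No source used here names the aligner or caller. Protocols in the labels give paired reads of 150 bases and 61 to 138 M reads a library, and the files give no depth per library.

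Members were peaks named miR-138-5p outside Mt-rRNA and Gm42418 rows, and those rows were also left out of the peaks they were set against. Shares were compared with Fisher's exact test, two-sided, for every small RNA with at least 10 peaks, Benjamini-Hochberg adjusted over all tested, with a threshold of 0.05. Intervals are 95% Wilson intervals and, like the floor of 3 counts for a count of 0, cover counting error only. Nearby peaks and peaks of 1 gene are not independent. Recurrence needed 1 shared base on the same strand under the same name. The functions were tested on simulated data.

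Genes named are those of the 10 highest-scoring peaks per list, the 10 genes with the most CDS and UTR peaks and the 5 with the most intron peaks in reps 1-4, every gene at a place shared by all 3 lists, every named gene of the excitatory list and members of the gene lists. Other names, such as genes led by miR-138-5p and further reps 5-7 examples, were chosen after their values were seen. Some listed genes, and 1 gene list, are not reported here. The members and lists were chosen with earlier results of these data known. Alternatives covered score, list size, rRNA, regions, overlap and merged neighbours. Python 3.11.15, pandas 2.3.3, NumPy 2.4.6, SciPy 1.17.1 and matplotlib 3.10.9 were used.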

Additional observations from a re-analysis of the deposited data

Results flagged for a closer look

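Peaks of miR-138-5p on rRNA lie outside every comparison above and are given here because those rows were left out. Whether they are signal was not tested. In the IgG list 0 of 10 peaks carried the name, but with 10 peaks, which allow a share of up to 30%, that list sets no level to hold them against. Only 1 of those 10 IgG peaks lay outside rRNA rows. There were 15 such peaks in reps 5-7 and 62 in reps 1-4, beside 2 in the excitatory list. In reps 1-4 the 12S rRNA gene mt-Rnr1 had 19 with a summed score of 1516, the 16S rRNA gene mt-Rnr2 22 with 831 and Gm42418 21 with 1427. They held 0.652%, 0.919% and 1.07% of the summed score of all small RNAs on those genes. Outside rRNA rows miR-138-5p held 1.39% of the summed score in reps 1-4.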

How the results depend on the processing

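No paired analysis was possible because libraries were pooled before peaks were called, and for the same reason no replicate could be left out. A seed search over whole lists with its windows and match lengths was not run, since no genome was at hand. The cause of the changes below was not tested. The share of miR-138-5p in the excitatory list minus reps 5-7 lost its call at the median score or above (1.79 points, exact test, adjusted p = 0.148), with the top-scoring peaks of reps 5-7 alone (1.42, p = 0.316), with CDS and UTR peaks alone (1.45, p = 0.0658) and with rRNA kept (1.30, p = 0.0690). The share in reps 5-7 minus reps 1-4 changed sign at the median score or above (0.0370) and with rRNA kept (0.0244). The 3′ UTR difference in reps 1-4 turned to -0.695 at the median score or above, -0.934 without miR-124-3p, -13.3 among CDS and UTR peaks and -4.28 by summed score. The excitatory CDS difference turned to -2.65 without mitochondrial peaks. By summed score the intron difference was -14.4 in reps 1-4 and -4.71 in the excitatory list. Recurrence in reps 1-4 was 52.6% (excitatory) and 48.6% (reps 5-7) when at least 50% of each peak had to overlap, and 94.6% for reps 5-7 when any small RNA counted. With at least 2 peaks, 39 listed genes remained of 73. Counts for single gene lists moved in 9 further cases. Of the other 91 values, the excitatory 3′ UTR difference (-4.49) turned to 1.28 by summed score, which has no test, and the rest kept their direction and side of the threshold. Merging of neighbours, dropping intergenic or mitochondrial peaks and the pairwise CDS comparison were chosen after seeing the data.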

Other observations

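In introns the miR-138-5p peaks of reps 1-4 fell on 451 genes, and the most were on long neuronal genes. Kcnip4, which encodes a potassium channel partner, had 45, the RNA-binding protein gene Celf2 had 23, the neuregulin gene Nrg3 and the protocadherin gene Pcdh9 22 each, and Csmd1 and Ptprd 17 each. The highest score among the Kcnip4 peaks was 10. miR-138-5p made 1.48% of the 3040 intron peaks of Kcnip4 and 1.22% of the 1879 of Celf2. Over all introns it had 985 peaks, beside 116128 of other small RNAs. The genes named here had many intron peaks of any small RNA, with the fewest, 1371, on Csmd1. Their order by miR-138-5p peaks is therefore not a trait of miR-138-5p alone.

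A further 10 peaks of reps 1-4 were annotated to miRNA genes, with scores of 3 to 5. On Mir128-1 and Mir128-2 the peak covered all 21 bases of miR-128-3p, with 14 and 5 small RNAs at the place. On Mirlet7b it covered the 22 bases of let-7b-5p. On Mir138-1, one of its own genes, a peak of score 3 covered 19 of the 23 bases of miR-138-5p and another of score 3 covered 10 bases of miR-138-1-3p.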
